A study of Mus musculus with 24 samples.

Results

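The Polycomb and H3K9 silencing factors are 42 genes for the enzymes, readers and adaptors of 2 repressive chromatin systems. They were matched by gene symbol to a list of names that was drawn up with earlier results of these data known, by a rule that uses no measured value, and all 42 were present in the control and in the paused results, out of 20625 gene symbols in all. By role they comprise 8 genes of Polycomb repressive complex 2 (PRC2), 20 of Polycomb repressive complex 1 (PRC1), 13 of the H3K9 methylation and heterochromatin machinery, and the demethylase gene Kdm1a. Of the 42, 41 had mean counts above 5 ppm of the summed mean counts in both tables, against 54.6% of all genes in control and 55.1% in paused cells. Cbx8 was the member below that level.

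The RNA came from E14, an established mouse embryonic stem cell line, grown on gelatin in serum with leukaemia inhibitory factor. The genotypes were wild type, Smad2_KO1 and Smad2_KO2, the last pair being lines in which the signal transducer gene Smad2 was disrupted. Each was kept in control medium or paused with the mTOR inhibitor INK128 at 200 nM for 12 h. These 6 groups had 4 libraries each, 24 libraries in all. Whether a knockout line is a single clone, and how Smad2 was disrupted, is not given in the sources used here.

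PRC2 trimethylates histone H3 on lysine 27 through Ezh2 or Ezh1, held in an active complex by Eed and Suz12. PRC1 ubiquitinates histone H2A through Rnf2 or Ring1, each paired with a Pcgf protein. Canonical PRC1 carries a Cbx subunit that reads the PRC2 mark, whereas variant PRC1 carries Rybp or Yaf2 and finds its sites through DNA-binding partners. Methylation of H3 on lysine 9 is laid down by Suv39h1, Suv39h2, Setdb1, Ehmt1 and Ehmt2 and is read by the HP1 proteins Cbx1, Cbx3 and Cbx5. In embryonic stem cells the Polycomb complexes are known for holding lineage genes silent, and the H3K9 system for silencing transposons, imprinted copies and germline genes.

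Each deposited table gives, per gene, a mean normalized read count over libraries, a log2 change between genotypes, its standard error (SE) and an adjusted p, and "called" below means an adjusted p under 0.05. No value of a single library was given, so the spread between libraries is seen only through the standard errors, sequencing depth is not known for any library and the 2 knockout lines cannot be told apart. Nothing in the sources says that replicates were separate cultures. If they were not, the p-values measure only the spread between these samples, which may be technical. The tables do not name the numerator. They were taken as knockout over wild type, since Smad2 was lower in both of the authors' deposited tables, at 78.6% of wild type in control (log2 change -0.35, SE 0.07) and 64.6% in paused cells (-0.63, SE 0.06). Were the sense the other one, all directions given here would flip. All 10 embryonic stem cell markers were abundant, with means between 6214 and 51710 counts in the authors' deposited table of control cells. Of the 7 primitive endoderm markers, which mark an extraembryonic lineage, 6 were called higher in each of the authors' deposited tables, at low means that summed to 1029 counts in control and 1801 in paused cells. Of all genes, 19.5% were called higher in control and 20.5% in paused cells. As these are bulk RNA samples, fewer cells of a type and less RNA per cell cannot be told apart.

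Loss of Smad2 came with small and mixed changes of the silencing factors. In the authors' deposited table of control cells 24 of the 42 members were called, 14 higher and 10 lower, or 57.1% against 41.4% of all genes tested. The authors' deposited table of paused cells called 28 of 42, 21 higher and 7 lower, or 66.7% against a background of 42.6%. Calls were more common among abundant genes in general. Among genes at the abundance minimum the authors' deposited tables called 50.0% in control and 51.6% in paused cells, and the members' shares are to be read against these values. By direction, 33.3% of the members were called higher and 23.8% lower in control cells, against 18.4% and 31.6% of genes at the abundance minimum and 19.5% and 21.9% of all genes. In paused cells 50.0% of the members were called higher and 16.7% lower, against 19.7% and 31.9% at the abundance minimum and 20.5% and 22.0% of all genes.

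The size of the changes was modest. The median absolute log2 change of the members in the authors' deposited tables was 0.15 in control and 0.18 in paused cells, compared with 0.22 and 0.21 over all genes and 0.15 and 0.13 over genes at the abundance minimum. Signed, the members' medians were 0.05 and 0.10, where the genes at the abundance minimum had medians of -0.05 and -0.05. A change of at least 1.5-fold was reached by 4 members in each of the authors' deposited tables, and of at least 2-fold by Cbx8 in paused cells alone. The less abundant members had the wider changes. Over the 42 members, the absolute change and the log2 mean count had a Pearson r of -0.50 (Spearman rho -0.46) in control and -0.46 (rho -0.39) in paused cells; both quantities come from the same libraries.

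**Figure D1:**
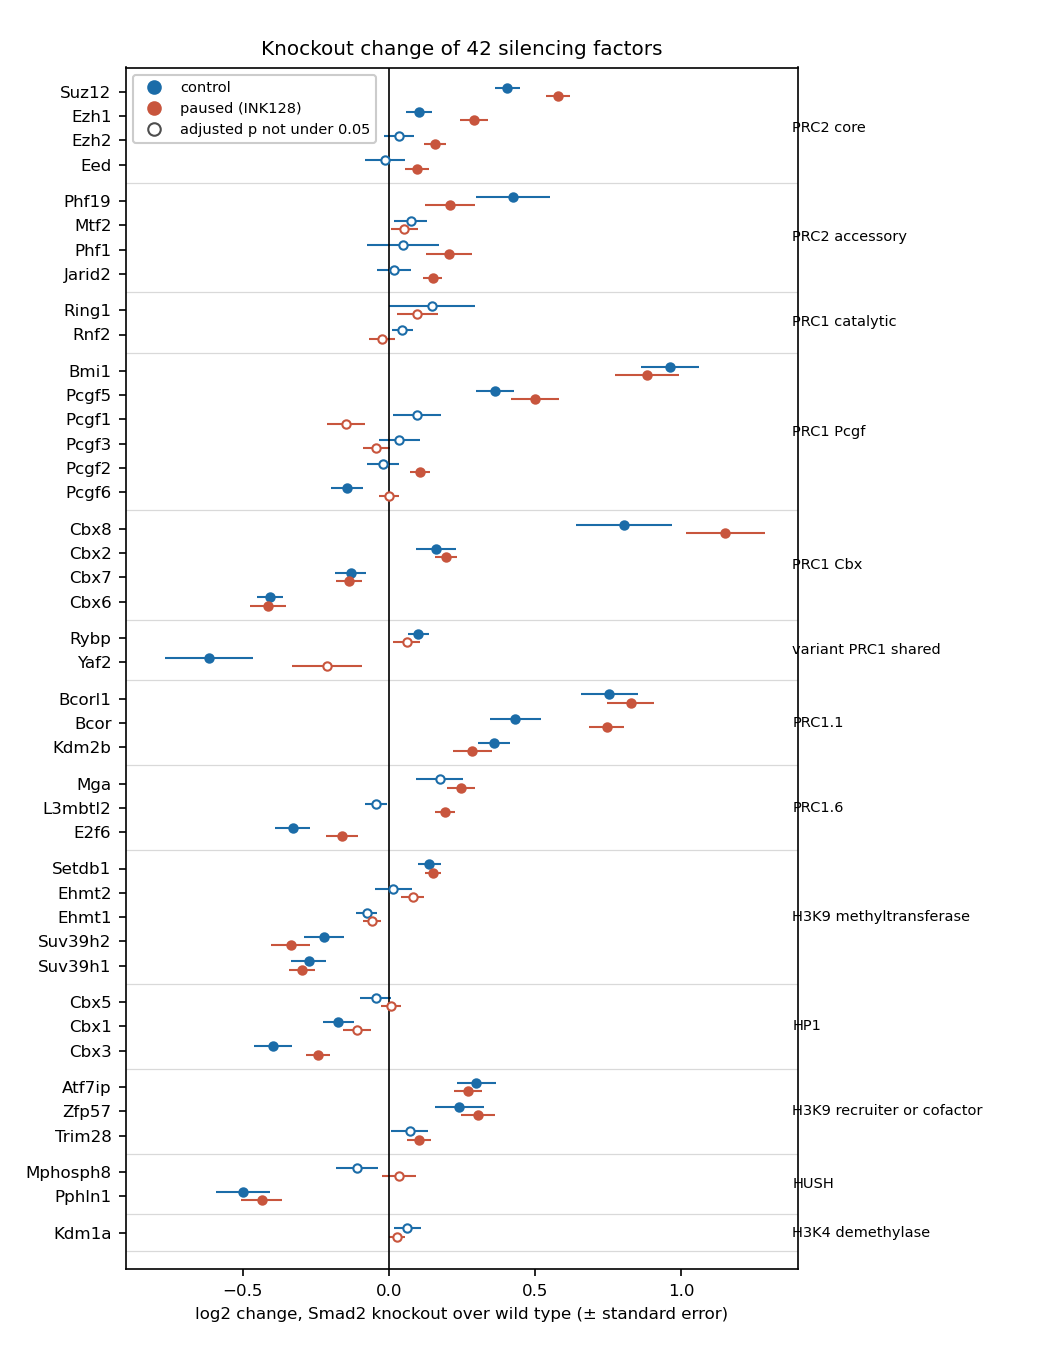
Log2 change of each silencing factor, Smad2 knockout over wild type, in control (blue) and paused (red) cells, as in the authors' deposited tables. Points are the deposited changes, bars are their standard errors, open points have an adjusted p of 0.05 or more, and members are grouped by complex. Suz12, Bmi1, Cbx8, Kdm2b, Bcor and Bcorl1 lie to the right in both conditions, and Cbx6, Pphln1, Suv39h1 and Suv39h2 to the left.

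The PRC2 genes that were called were all higher. In the authors' deposited table of control cells 3 of 8 were called higher, none lower and 5 not called, a share of 37.5% called against 41.4% of all genes and 50.0% of genes at the abundance minimum. In that of paused cells 7 of 8 were called higher and none lower, or 87.5% against 42.6% and 51.6%. Suz12, the scaffold subunit on which PRC2 assembles, changed most among the core genes. It lies at chr11:79993106-80034123 in the GRCm38.p6 annotation. In the authors' deposited tables it rose by 0.41 (SE 0.04, adjusted p 2.09e-18) in control cells, at a mean of 16543 counts, and by 0.58 (SE 0.04, adjusted p 3.04e-40) in paused cells, at a mean of 17924. RNA of Suz12 in the knockout thus stood at 132.4% and 149.3% of wild type. The values of the other core genes were smaller. Ezh1, the catalytic subunit more often linked to differentiated cells, rose by 0.10 (SE 0.04, adjusted p 0.0472) in control and 0.29 (SE 0.05, adjusted p 1.83e-08) in paused cells of the authors' deposited tables. Ezh2, the main methyltransferase of dividing cells, had a value of 0.04 (SE 0.05) in control and rose by 0.16 (SE 0.04, adjusted p 0.00011) in paused cells. Eed, which binds the finished mark and stimulates the enzyme, had a value of -0.01 (SE 0.07) in control and rose by 0.10 (SE 0.04, adjusted p 0.0495) in paused cells of the authors' deposited tables. Suz12 and Ezh1 were thus the core genes called in both conditions, and Ezh1 in paused cells stood at 122.3% of wild type.

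The accessory subunits steer PRC2 to its targets and define alternative forms of the complex. Phf19, a Polycomb-like protein, rose by 0.42 (SE 0.13, adjusted p 0.00285) in control and 0.21 (SE 0.09, adjusted p 0.0369) in paused cells of the authors' deposited tables. Jarid2, the subunit that helps recruit PRC2 in embryonic stem cells, was at 0.02 (SE 0.06) in control and rose by 0.15 (SE 0.03, adjusted p 2.43e-05) in paused cells. Phf1, another Polycomb-like protein, was at 0.05 (SE 0.12) in control and rose by 0.21 (SE 0.08, adjusted p 0.0232) in paused cells of the authors' deposited tables. Mtf2, the Polycomb-like protein that was most abundant of the 3, was called in neither table (0.07, SE 0.06, and 0.05, SE 0.05). Of the further PRC2 subunits outside the member list, the authors' deposited tables called 2 of 5 higher and 1 lower in control, and 3 of 5 higher and none lower in paused cells, or 60% in each against 41.4% and 42.6% of all genes. Aebp2, a partner of the Jarid2 form, rose by 0.46 (SE 0.06) and 0.35 (SE 0.05). Lcor, whose locus also encodes a partner of the Polycomb-like form, rose by 0.39 (SE 0.06) and 0.31 (SE 0.05). Epop, listed under an older name, was not called in control (0.13, SE 0.15) and rose by 0.39 (SE 0.06) in paused cells, and the histone chaperone gene Rbbp7 fell by 0.20 (SE 0.06) in control and was uncalled in paused cells (-0.08, SE 0.04). Rbbp4, the other histone chaperone gene, was called in neither of the authors' deposited tables (-0.03, SE 0.03, and -0.04, SE 0.03).

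PRC1 showed calls in both directions, with its catalytic pair outside them. Of its 20 members the authors' deposited table of control cells called 8 higher and 5 lower, and that of paused cells 10 higher and 3 lower. The share called was 65% in each, against 41.4% of all genes and 50.0% of genes at the abundance minimum in control, and 42.6% and 51.6% in paused cells. The ubiquitin ligase genes Rnf2 (0.05, SE 0.04, and -0.02, SE 0.04) and Ring1 (0.15, SE 0.15, and 0.10, SE 0.07) were called in neither, although scaling to equal summed counts called Rnf2 higher in control cells (0.10, adjusted p 0.0133). For Ring1 in control cells the standard error is wide enough that a change of the size seen for Phf19 would lie near the end of its 95% interval.

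The Pcgf subunits divide PRC1 into subtypes, and Bmi1 had the largest change among them. Bmi1 (also known as Pcgf4) defines a canonical PRC1 known for repressing cell cycle inhibitors and for stem cell renewal. In the authors' deposited tables it rose by 0.96 (SE 0.10, adjusted p 1.03e-20) in control cells and by 0.88 (SE 0.11, adjusted p 8.55e-15) in paused cells, to 194.8% and 184.4% of wild type. Its mean was 683 counts in control and 1215 in paused cells, so it was among the less abundant members. Its close paralog Pcgf2, which the same subtype of complex can use instead, was much more abundant (4057 and 7328 counts). Pcgf2 was at -0.02 (SE 0.06) in control and rose by 0.11 (SE 0.03, adjusted p 0.00738) in paused cells of the authors' deposited tables. Pcgf5, of a variant PRC1, rose by 0.36 (SE 0.07, adjusted p 4.07e-07) and 0.50 (SE 0.08, adjusted p 1.94e-08). Pcgf6, the subunit that defines PRC1.6, fell by 0.14 (SE 0.05, adjusted p 0.0222) in control cells and stood at 0.00 (SE 0.03) in paused cells of the authors' deposited tables. Pcgf1 and Pcgf3, of other variant complexes, were called in neither, with values between -0.15 and 0.10, although Pcgf1 was called lower in paused cells when only genes at the abundance minimum were adjusted for (-0.15, adjusted p 0.0455).

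The Cbx readers of canonical PRC1 split into a pair that rose and a pair that fell, in both conditions. Cbx8, the least abundant member (114 counts in each table), rose by 0.80 (SE 0.16, adjusted p 8.83e-06) in control and 1.15 (SE 0.14, adjusted p 7.67e-16) in paused cells of the authors' deposited tables. Its neighbour Cbx2 rose by 0.16 (SE 0.07, adjusted p 0.0481) and 0.20 (SE 0.04, adjusted p 6.88e-07). Cbx7, known as the main Cbx of undifferentiated embryonic stem cells, fell by 0.13 (SE 0.05, adjusted p 0.0382) and 0.14 (SE 0.04, adjusted p 0.00547). Cbx6 fell by 0.41 (SE 0.05, adjusted p 1.57e-17) in control and by 0.41 (SE 0.06, adjusted p 7.79e-10) in paused cells of the authors' deposited tables, to 75.5% and 75.1% of wild type. In levels per kilobase of exon, Cbx2 and Cbx7 stood above Cbx6, and Cbx8 was lowest, in both tables. Cbx2 and Cbx8 are forms known to rise as stem cells differentiate.

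Rybp and Yaf2 take the place of a Cbx protein in variant PRC1 and stimulate its ligase activity. Rybp, the abundant one (11889 and 11108 counts), rose by 0.10 (SE 0.04, adjusted p 0.0164) in control and was uncalled in paused cells (0.06, SE 0.05) of the authors' deposited tables. Yaf2, with 264 and 343 counts, fell by 0.62 (SE 0.15, adjusted p 0.000258) in control cells, to 65.3% of wild type, and was uncalled in paused cells (-0.21, SE 0.12, adjusted p 0.144). The difference between the conditions for Yaf2, 0.40 (SE 0.19), did not pass its own test (adjusted p 0.345).

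In the variant complex PRC1.1 the members Kdm2b, Bcor and Bcorl1 rose in both conditions, and the member Pcgf1 was called in neither. Of its partners in the list of other PRC1 subunits, the Kdm2b partner Skp1a fell in both and the deubiquitinase gene Usp7 was called in neither (-0.0038, SE 0.04, and -0.01, SE 0.03), both named after their values were seen. The complex is brought to unmethylated CpG islands by the zinc finger of Kdm2b and holds Bcor or its paralog Bcorl1. Kdm2b rose by 0.36 (SE 0.05, adjusted p 1.1e-09) in control and 0.29 (SE 0.07, adjusted p 8.82e-05) in paused cells of the authors' deposited tables. Bcor rose by 0.43 (SE 0.09, adjusted p 6.86e-06) and 0.75 (SE 0.06, adjusted p 3.01e-33), reaching 135% and 167.7% of wild type. Bcorl1 rose by 0.75 (SE 0.10, adjusted p 5.31e-13) and 0.83 (SE 0.08, adjusted p 5.7e-23). Bcor (chrX:12036737-12160516) and Bcorl1 (chrX:48341358-48408068) are both on the X chromosome, far from each other. Skp1a fell by 0.33 (SE 0.09, adjusted p 0.00139) in control and 0.26 (SE 0.06, adjusted p 0.000196) in paused cells of the authors' deposited tables. Pcgf1 is the Pcgf subunit of PRC1.1.

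PRC1.6 is the variant complex known for silencing germline genes in embryonic stem cells, and its genes did not move as a unit. Here L3mbtl2 reads chromatin, Mga with Max recognises the E-box and E2f6 recognises the E2F motif. E2f6 fell by 0.33 (SE 0.06, adjusted p 6.05e-07) in control and 0.16 (SE 0.06, adjusted p 0.011) in paused cells of the authors' deposited tables. Mga was at 0.17 (SE 0.08, adjusted p 0.0708) in control and rose by 0.25 (SE 0.05, adjusted p 1.77e-06) in paused cells. L3mbtl2 was at -0.04 (SE 0.04, adjusted p 0.375) in control and rose by 0.19 (SE 0.03, adjusted p 1.47e-07) in paused cells of the authors' deposited tables. Among partners of the other PRC1 subunit list, Tfdp1, the dimer partner of E2F factors, fell by 0.59 (SE 0.06) and 0.45 (SE 0.06). Over that list of 17 genes the authors' deposited tables called 5 higher and 4 lower in control and 7 higher and 5 lower in paused cells, or 52.9% and 70.6% against 41.4% and 42.6% of all genes. Besides Tfdp1, larger changes in it included those of Scml2 (0.49, SE 0.11, and 0.72, SE 0.13), a Polycomb protein with a chromatin-reading domain, of Fbrs in control cells (0.34, SE 0.06) and of Scmh1 in paused cells (-0.31, SE 0.06).

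The germline genes that PRC1.6 is known to repress were mostly higher in the knockout. The list of 20 was compiled from general knowledge with earlier results of these data known, which already showed Stra8 among the largest rises, so it is no independent evidence of a direction. In the authors' deposited table of control cells 15 of 20 were called higher and 3 lower, against 19.5% and 21.9% of all genes, with a median change of 0.55. The authors' deposited table of paused cells called 16 of 20 higher and none lower, against 20.5% and 22.0%, with a median of 0.81, and the medians over all genes were 0.00 in both. Stra8, which opens the meiotic programme, rose by 2.57 (SE 0.16) and 2.38 (SE 0.21) in the authors' deposited tables. Asz1, of the piRNA pathway, rose by 1.42 (SE 0.25) and 1.87 (SE 0.21). Smc1b, a meiotic cohesin, rose by 1.18 (SE 0.10) and 1.08 (SE 0.11), and Dazl, an RNA-binding protein of germ cells, by 1.1 (SE 0.07) and 1.30 (SE 0.09) in the authors' deposited tables. Against this direction, Ddx4 (-0.37, SE 0.07), Tdrd1 (-0.70, SE 0.12) and Sycp3 (-0.42, SE 0.11) fell in control and were uncalled in paused cells; these 3 are named because they fell, after their values were seen. For 17 of the 20 the value was higher in paused than in control cells, as it was for 51.3% of all genes, and none was called for the difference between conditions. The rises came at low to moderate abundance, with mean counts between 33 and 1872 in control cells of the authors' deposited tables. Whether the E2f6 and Pcgf6 falls bear on these genes was not tested.

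**Figure D2:**
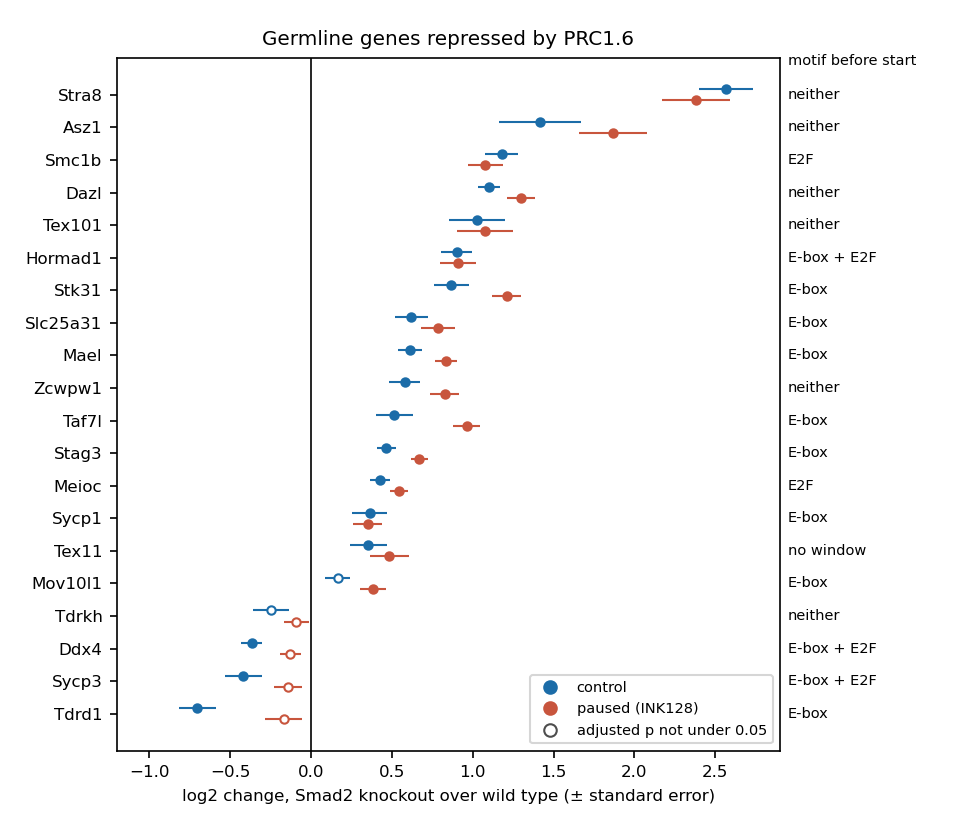
Log2 change of the 20 germline genes, Smad2 knockout over wild type, in control (blue) and paused (red) cells of the authors' deposited tables, with standard errors and open points for adjusted p of 0.05 or more. The right margin names the motifs found before the start of each gene. The genes run from Stra8, at 2.57 in control cells, to Tdrd1, at -0.70.

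Because Mga and E2f6 belong to the member list, the promoters were read for the motifs these factors are known to bind. The windows were the 250 bases before each RefSeq gene start in GRCm38.p6, the build that corresponds to the mm10 named in the submitters' processing notes. The E-box was CACGTG, which reads the same on both strands. The E2F motif was GCGGGAA, searched on both strands, so that it also appears as TTCCCGC. These motifs can share no more than an end base. Of the 20 germline genes 19 had a window. The E-box was in 11 of these (57.9%), against 9.06% of the 14574 genes of the tables with a window and 6.86% of all 27025 genes with promoters. The E2F motif was in 5 of 19 (26.3%), against 6.86% and 4.38%. The genes were listed as known targets of PRC1.6, which holds Mga and E2f6. High shares of their motifs could thus follow from the choice of the list and are no independent result. By motif, of the 11 genes with an E-box the authors' deposited table of control cells called 7 higher and 3 lower, and of the 8 without one 7 higher and none lower. All 3 of the germline genes that fell in control cells held an E-box. In paused cells 8 of 11 with and 7 of 8 without the E-box were called higher. The windows also differed in CG dinucleotides, which both motifs hold. Taking the window with the most CG for each gene, the median was 19 over the germline genes. It was 14 over the tables' genes and 6 over all genes with promoters. The part of this in the shares was not tested. A match describes letters and is not a binding site shown by these data.

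The stretches around the motif are shown for germline genes that rose in both conditions (Mael, Stk31, Taf7l and Hormad1) and for a pair with the same E-box that fell in control cells (Tdrd1 and Sycp3), so that both directions can be read beside each other. Sequences run 5′ to 3′ on the strand of the gene, capitals mark each match to the E-box or the E2F motif, none overlaps an annotated exon, and all are RefSeq sequence of GRCm38.p6. They lie at chr1:166238940-166238989 (minus strand, Mael), chr6:49395462-49395511 (plus, Stk31), chrX:134476512-134476561 (minus, Taf7l), chr3:95559560-95559610 (plus, Hormad1), chr19:56826176-56826208 (plus, Tdrd1) and chr10:88459501-88459550 (plus, Sycp3).
Mael E-box: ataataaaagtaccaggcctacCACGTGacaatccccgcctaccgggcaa
Stk31 E-box: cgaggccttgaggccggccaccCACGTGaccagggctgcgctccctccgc
Taf7l E-box: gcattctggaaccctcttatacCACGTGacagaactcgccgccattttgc
Hormad1 E2F motif: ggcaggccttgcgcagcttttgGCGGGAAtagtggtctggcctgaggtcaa
Tdrd1 E-box: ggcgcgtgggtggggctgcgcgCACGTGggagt
Sycp3 E-box: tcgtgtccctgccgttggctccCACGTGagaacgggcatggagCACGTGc
In the authors' deposited tables Mael, of the piRNA pathway, rose by 0.61 (SE 0.07) and 0.84 (SE 0.07), and Stk31, a testis kinase, by 0.87 (SE 0.11) and 1.21 (SE 0.09). Taf7l, a germ cell form of a transcription factor subunit, rose by 0.52 (SE 0.12) and 0.96 (SE 0.08), and Hormad1, of the meiotic chromosome axis, by 0.90 (SE 0.10) and 0.91 (SE 0.11).

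The silencing factors' own promoters were read for the same motifs. Of the 42 members 38 had a window, and 7 of these (18.4%) held the E-box and 5 (13.2%) the E2F motif. Taking the window with the most CG for each gene, the 38 genes had a median of 21.5 CG dinucleotides. E-box holders were Bmi1, Cbx8 and Bcorl1, which rose in both conditions, Pcgf2, which rose in paused cells, Cbx6, which fell in both, and Cbx5 and Ehmt2, which were called in neither of the authors' deposited tables. E2F motif holders were Suz12, Phf19 and Pcgf5, which rose in both conditions, Trim28, which rose in paused cells, and Suv39h2, which fell in both. The palindrome GTCTAGAC, which reads the same on both strands and is known from studies of SMAD binding, was in none of the 38 members or 19 germline genes and in 34 of the 14574 genes of the tables (0.233%; 0.2% of all promoters). The windows of Bmi1, Cbx8 and Suz12 are shown as those of members that rose in both conditions, and that of Suv39h2 as a holder of the same E2F motif that fell. They lie at chr2:18676781-18676830 (plus strand, Bmi1), chr11:119040984-119041033 (minus, Cbx8), chr11:79992866-79992916 (plus, Suz12) and chr2:3475103-3475153 (minus, Suv39h2), and are RefSeq sequence of GRCm38.p6.
Bmi1 E-box: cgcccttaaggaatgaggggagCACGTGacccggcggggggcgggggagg
Cbx8 E-box: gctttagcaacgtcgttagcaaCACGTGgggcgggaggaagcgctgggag
Suz12 E2F motif: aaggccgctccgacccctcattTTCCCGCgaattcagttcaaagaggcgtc
Suv39h2 E2F motif: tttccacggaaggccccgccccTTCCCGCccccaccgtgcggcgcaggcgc

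The H3K9 genes were called in both directions. Of the 13, the authors' deposited table of control cells called 3 higher and 5 lower, where 18.4% of genes at the abundance minimum were called higher and 31.6% lower. The authors' deposited table of paused cells called 4 higher and 4 lower, where the shares were 19.7% and 31.9%. Among the methyltransferases the 2 Suv39h enzymes, which methylate pericentromeric heterochromatin, fell. Suv39h1 fell by 0.27 (SE 0.06, adjusted p 3.97e-05) in control and 0.30 (SE 0.05, adjusted p 8.24e-10) in paused cells of the authors' deposited tables. Suv39h2 fell by 0.22 (SE 0.07, adjusted p 0.00453) and 0.34 (SE 0.07, adjusted p 3.21e-06). Setdb1, the enzyme that silences retroelements with Trim28, rose by 0.14 (SE 0.04, adjusted p 0.00147) and 0.15 (SE 0.03, adjusted p 3.19e-07) in the authors' deposited tables. Ehmt1 (-0.08, SE 0.04, and -0.06, SE 0.03) and Ehmt2 (0.01, SE 0.06, and 0.08, SE 0.04), which form the dimer for H3K9 dimethylation, were called in neither of the authors' deposited tables.

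Of the 3 recruiters and cofactors of Setdb1, 2 were called higher in control and 3 in paused cells. The shares called higher were 19.5% and 20.5% of all genes, and 18.4% and 19.7% of genes at the abundance minimum. Atf7ip, which stabilises Setdb1 in the nucleus, rose by 0.30 (SE 0.07, adjusted p 5.1e-05) in control and 0.27 (SE 0.05, adjusted p 2.82e-07) in paused cells of the authors' deposited tables. Zfp57, the zinc finger protein that protects imprints, rose by 0.24 (SE 0.08, adjusted p 0.0121) and 0.30 (SE 0.06, adjusted p 1.19e-06). Trim28, the corepressor that bridges zinc finger proteins to Setdb1, was the most abundant member, at 140040 counts in control and 91763 in paused cells of the authors' deposited tables. It was at 0.07 (SE 0.06) in control and rose by 0.10 (SE 0.04, adjusted p 0.0324) in paused cells.

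Of the HP1 readers, Cbx3 fell in both conditions, by 0.40 (SE 0.06, adjusted p 1.71e-08) and 0.24 (SE 0.04, adjusted p 5.16e-08) in the authors' deposited tables. The annotation holds 8 pseudogene copies named after Cbx3 and 1 named after Rybp, so reads of these genes could have been split or lost in counting and their values are uncertain. Cbx1 fell by 0.17 (SE 0.05, adjusted p 0.00421) in control and was just outside the threshold in paused cells (-0.11, SE 0.05, adjusted p 0.0514), and Cbx5 was called in neither (-0.04, SE 0.05, and 0.01, SE 0.03). In HUSH, the complex that silences young retroelements, Pphln1 fell by 0.50 (SE 0.09, adjusted p 5.7e-07) and 0.44 (SE 0.07, adjusted p 9.46e-09), to 70.7% and 74.0% of wild type. Its partner Mphosph8, the H3K9 methylation reader of HUSH, was called in neither of the authors' deposited tables (-0.11, SE 0.07, and 0.03, SE 0.06). Kdm1a, which removes methyl groups from H3K4 within repressor complexes, was called in neither as well (0.06, SE 0.05, and 0.03, SE 0.03).

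The 15 further H3K9 silencing partners gave 2 higher and 3 lower calls in control and 5 higher and 4 lower in paused cells of the authors' deposited tables. The share called was thus 33.3% against 41.4% of all genes in control and 60% against 42.6% in paused cells. Cdyl2, a chromodomain protein, rose by 0.37 (SE 0.10) and 0.40 (SE 0.10), and Uhrf1, which links H3K9 methylation to DNA methylation, by 0.24 (SE 0.05) and 0.30 (SE 0.05) in the authors' deposited tables. Fam208b, a relative of the HUSH subunit gene Fam208a, fell by 0.37 (SE 0.09) and 0.39 (SE 0.07), and Morc2a, an ATPase that works with HUSH, by 0.22 (SE 0.04) and 0.17 (SE 0.04).

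How the knockout change compared between control and paused cells was tested for each gene as the paused minus the control change, divided by the combined standard error, with a two-sided normal p adjusted over 19134 genes. Per the titles, control and paused libraries are distinct, but which libraries entered each table is not stated. The mean count of a gene was within 1% between the tables for 423 of 19134 genes, and the tables were taken as normalized separately. Of the 42 members, L3mbtl2 alone was called (2.38%, against a background of 1.44%). Its change was 0.24 higher in paused than in control cells (SE 0.05, 95% interval 0.14 to 0.34, adjusted p 0.00149), and that call was lost both when the test allowed differences up to 1.2-fold and when the statistic was rescaled by its middle spread. Members with larger differences than L3mbtl2 did not pass, among them Yaf2 (0.40, 95% interval 0.02 to 0.78, adjusted p 0.345), Cbx8 (0.35, interval -0.07 to 0.77, adjusted p 0.516) and Bcor (0.31, interval 0.10 to 0.52, adjusted p 0.112). Suz12 (0.17, interval 0.05 to 0.29, adjusted p 0.135) and Ezh1 (0.19, interval 0.06 to 0.31, adjusted p 0.13) did not pass either. A change called in paused cells alone, as for Ezh2, Eed and Jarid2, is thus not shown to differ from control, and the intervals of these 3 differences ran from 0.00 to 0.25, -0.05 to 0.27 and 0.00 to 0.26.

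The members called in both tables had the same direction in each, while 9 of the 42 differed in sign between the tables, none of them called in both. Of the 42 members, 20 were called in the same direction in both of the authors' deposited tables (13 higher and 7 lower) against 30.3% of all genes, and none in opposite directions. A further 4 were called in control alone, 8 in paused cells alone and 10 in neither. The control and paused changes of the 42 members had a Pearson r of 0.92 (Spearman rho 0.89), where all genes of both tables had 0.82 (rho 0.76). The members were measured more precisely, with median standard errors of 0.06 in control and 0.05 in paused cells, against 0.11 and 0.10 over all genes. Shared calls and correlations were not computed for genes at the abundance minimum. In 27 of the 42 the value was higher in paused cells (64.3%, against 51.3% of all genes).

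**Figure D3:**
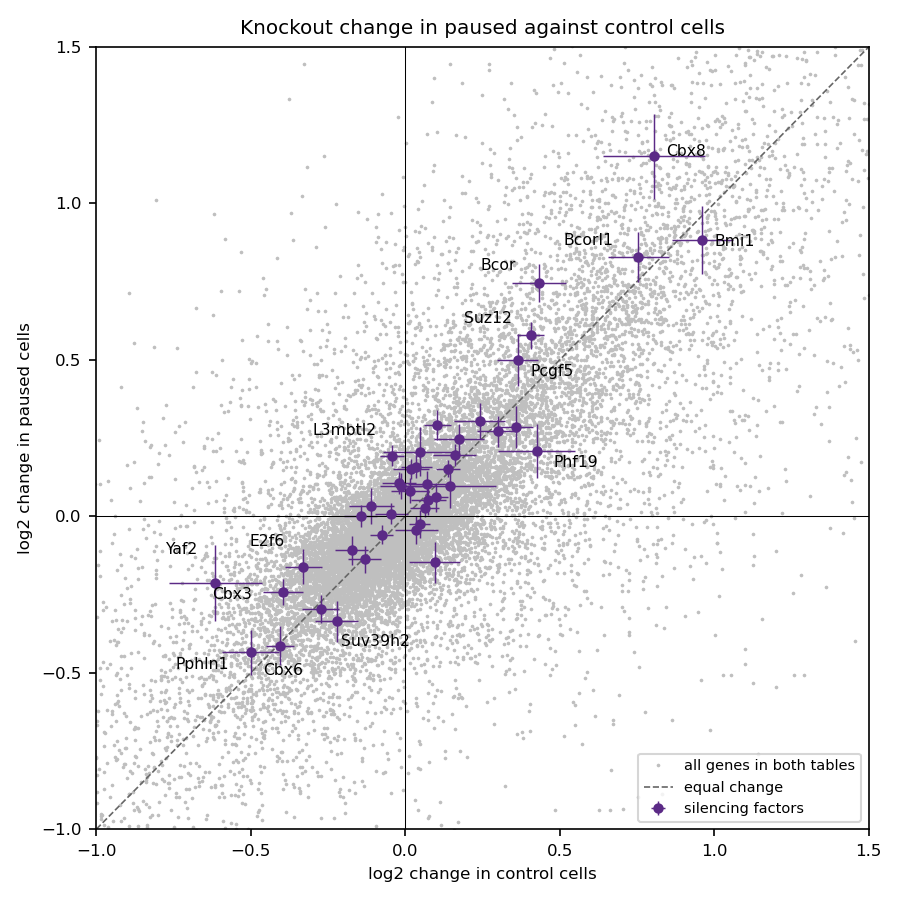
Log2 change in paused cells (vertical axis) against log2 change in control cells (horizontal axis) from the authors' deposited tables, for the 42 silencing factors (purple, bars are standard errors) and all genes in both tables within the axes (grey). The dashed line marks equal change. The members lie along the line, with L3mbtl2, the single member called for the difference, above it.

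Levels differed far more between members than between genotypes. Per kilobase of exon, the mean normalized counts of the authors' deposited table of control cells ran from 31.1 for Cbx8 to 33680 for Trim28. In control cells the order of the PRC2 core was Eed (3656), Suz12 (3345), Ezh2 (1383) and Ezh1 (209). Within the Pcgf family Pcgf2 (1151) was highest, followed by Pcgf6 (730), Pcgf3 (360), Pcgf1 (179), Bmi1 (172) and Pcgf5 (84.8). Rnf2 (1309) exceeded Ring1 (130), and Rybp (2508) exceeded Yaf2 (141), in the authors' deposited table of control cells. The deposited tables give no spread of a mean, so close neighbours such as Pcgf1 and Bmi1 cannot be ordered. With the longest transcript as the length, the control order was the same in every family except HP1, and the paused order changed within the PRC2 core, PRC2 accessory, Pcgf and HP1 families.

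Between the tables, the means stand side by side without a test, because the tables were taken as normalized separately and pool genotypes. As shares of the summed mean counts in the authors' deposited tables, Ezh1 was at 33.8 ppm in control and 95.9 in paused cells. Bmi1 was at 14.8 and 27.4, Pcgf2 at 88.1 and 165.4, Mga at 218.5 and 352.8 and Cbx7 at 51.9 and 83.5 ppm. Trim28 (3041 in control and 2071 in paused cells) and Cbx1 (331.4 and 227.4) went the other way in the authors' deposited tables. For Ezh1 the gap between the tables was wider than its change with genotype in either.

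**Figure D4:**
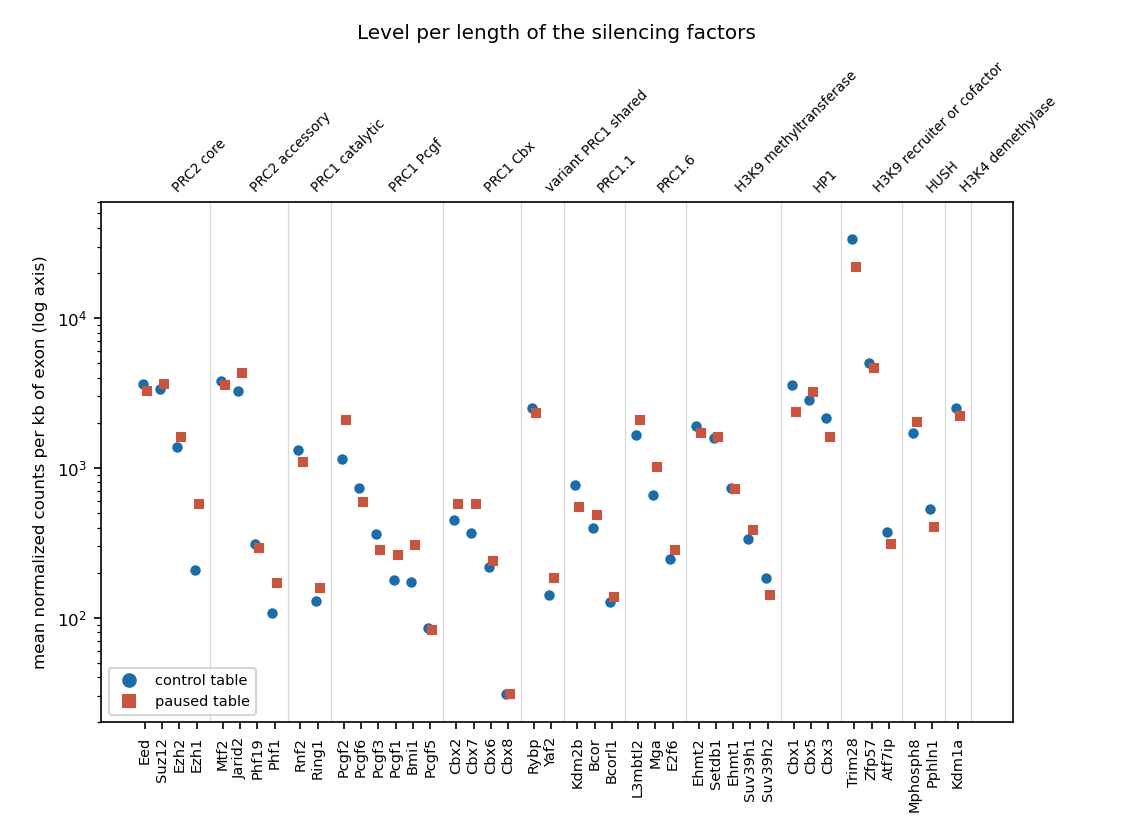
Mean normalized counts per kilobase of exon (log axis) for each silencing factor in the authors' deposited tables for control (circles) and paused (squares) cells, grouped by complex and ordered by control level. Trim28 is highest in both and Cbx8 lowest, and Ezh1 shows a wide gap between the tables.

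The bivalent genes that PRC2 marks in embryonic stem cells moved in both directions. The list held 24 lineage genes, of which 18 were in the authors' deposited table of control cells and 21 in that of paused cells. In control 7 were called higher and 4 lower, against 19.5% and 21.9% of all genes, and in paused cells 8 higher and 4 lower, against 20.5% and 22.0%. Sox17 (2.19, SE 0.31, and 1.28, SE 0.32), an endoderm factor, and Hand1 (1.95, SE 0.18, and 2.69, SE 0.26), of heart and trophoblast, rose in the authors' deposited tables. Gata6 (1.76, SE 0.18, and 1.35, SE 0.17), an endoderm factor, rose as well. Tbx5, a heart factor found in the authors' deposited table of paused cells, rose there by 1.53 (SE 0.58) at a mean of 7.37 counts. In the other direction, and named after their values were seen, Cdx2 (-0.84, SE 0.22, and -0.92, SE 0.35), of trophoblast and hindgut, Pax6 (-0.63, SE 0.17, and -1.19, SE 0.17), of eye and brain, and Wt1 (-0.80, SE 0.18, and -1.33, SE 0.25), of kidney and gonad, fell in both of the authors' deposited tables. These are low transcripts, with a median of 64.5 counts in control and 19.3 in paused cells. Sox17, Gata6 and Gata4 are also primitive endoderm markers, of which 6 of 7 were called higher, and the part of that cell type in these rises was not tested.

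Several members adjoin each other on a chromosome, and their neighbours were read for that reason, after the values of the members had been seen. Cbx2 (chr11:119023019-119031275) and Cbx8 (chr11:119036303-119040913) lie 5.03 kb apart with no protein-coding gene between them, and both rose in both of the authors' deposited tables. The genes on either side of this pair are not reported here. Cbx6 (chr15:79823898-79834333) and Cbx7 (chr15:79915804-79971143) lie 81.5 kb apart with Apobec3 between them, and both fell. Apobec3 was at -0.04 (SE 0.05) in control and fell by 0.16 (SE 0.05) in paused cells, and Pdgfb, beyond Cbx7, fell by 1.55 (SE 0.24) and 1.21 (SE 0.19) in the authors' deposited tables. Npcd (chr15:79786351-79834333), which has no values in the authors' deposited tables, spans the whole of Cbx6. Use of strand in counting is not stated in the sources used here. Reads of overlapping genes, such as Cbx7 and Apobec3 or Cbx6 and Npcd, may thus not be told apart.

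Yaf2 (chr15:93283833-93336935) and Pphln1 (chr15:93398345-93491913) lie 61.4 kb apart with Zcrb1 between them. In control cells they belonged to a run of 7 protein-coding genes that follow each other among genes with values. All 7 were lower and called in the authors' deposited table, from Gxylt1 to Pus7l over 1.3 Mb. The nearest genes with values on either side, Cntn1 (a mean of 15.5 counts) and Irak4, were not called in control cells. Pdzrn4, which lies between Cntn1 and Gxylt1, had no value in control cells. Among the run's other genes in the authors' deposited table of control cells, Gxylt1 fell by 0.20 (SE 0.05), Zcrb1 by 0.60 (SE 0.12), Prickle1 by 1.08 (SE 0.18), Adamts20 by 0.61 (SE 0.19) and Pus7l by 0.46 (SE 0.08). Of the same 7 genes in paused cells, Gxylt1 (-0.23, SE 0.04), Zcrb1 (-0.26, SE 0.08), Pphln1 and Adamts20 (-0.44, SE 0.18) fell, while Yaf2, Prickle1 (-0.17, SE 0.13) and Pus7l (-0.08, SE 0.08) were not called. Prickle1 differed between the conditions by 0.91 (SE 0.22, adjusted p 0.00801). Runs of at least 7 genes called lower occurred 5 times among the 16145 placed genes in control and 3 times among 16118 in paused cells, with the longest at 8 genes in each, so that such a run was not confined to this place.

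**Figure D5:**
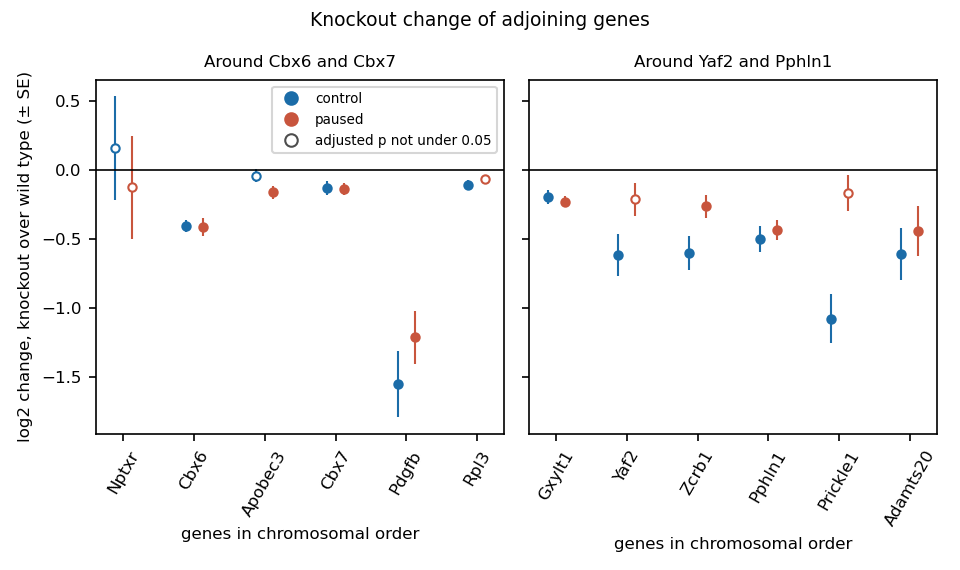
Log2 change, Smad2 knockout over wild type, of genes in chromosomal order around Cbx6 and Cbx7 (left) and Yaf2 and Pphln1 (right), in control (blue) and paused (red) cells of the authors' deposited tables. Bars are standard errors and open points have an adjusted p of 0.05 or more. Pdgfb has the lowest values on the left, and the right panel shows control values below 0 for each gene from Gxylt1 to Adamts20.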

How the data were processed

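Titles gave the genotype and treatment of each poly(A) RNA library. Per the submitters' processing notes, FastQC, Trim Galore, HISAT2, featureCounts and DESeq2 were used with mm10. Versions, the annotation, use of strand in counting and which libraries entered each comparison are not given in the sources used here. The authors deposited 2 tables with DESeq2 columns, per the file headers. The mean normalized count is a signal value averaged by the authors. The deposited change is a log2 ratio with its standard error on that log2 scale. As a score, the deposited statistic equals change over standard error. The deposited p-value and its Benjamini-Hochberg adjustment were used as they stand, called under 0.05.

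From these, the difference between conditions, counts per kilobase of the GENCODE M21 exon union, shares in ppm and an abundance minimum of 5 ppm were computed with Python 3.11.15, numpy 2.4.6, scipy 1.17.1 and pandas 2.3.3, and drawn with matplotlib 3.10.9. The calculations were tested on simulated data. Older symbols, neighbours and promoters came from RefSeq GRCm38.p6. Depth of the libraries is not known, and the standard errors are the measure of precision.

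The members and the 12 further lists were chosen with earlier results of these data known. Values are given for every called member, and for at most 4 called genes of a further list by size of change, or the whole list at 5 genes or fewer; any other gene is marked as picked with its values in view. Some genes that this rule would name are not reported here. Germline promoters shown were picked by motif and call. Alternatives tried were an adjusted p under 0.01, a test against at most 1.2-fold, a statistic scaled to its middle spread, equal summed counts, a median change of 0 and the abundance minimum.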

Additional observations from a re-analysis of the deposited data

Results flagged for a closer look

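The knockout change differed between paused and control cells, by the test of the difference itself, for 1 of the 42 silencing factors. This share of 2.38% was near the 1.44% of all genes that the test called. L3mbtl2 had a difference of 0.24 on the log2 scale (SE 0.05, adjusted p 0.00149), from -0.04 in control to 0.19 in paused cells of the authors' deposited tables. That call was lost when the test allowed differences up to 1.2-fold and when the statistic was rescaled by its middle spread. Among the 15 further H3K9 silencing partners the test of the difference called 1 (6.67%), the histone chaperone gene Daxx. Its difference was 0.21 (SE 0.06, adjusted p 0.024, not under 0.01), from -0.03 in control to 0.17 in paused cells of the authors' deposited tables.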

How the results depend on the processing

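When the test allowed changes up to 1.2-fold, 6 of the 42 members were called in control cells (4 higher and 2 lower), 6 in paused cells (6 higher and 0 lower) and 0 for the difference. Over all genes this test called 12.2% in control cells, 12.1% in paused cells and 0.0209% for the difference. The control calls kept were Suz12, Bmi1, Cbx6, Cbx8, Bcorl1 and Pphln1, and the paused ones Suz12, Bmi1, Pcgf5, Cbx8, Bcor and Bcorl1. With the statistic divided by its middle spread (2.77 in control, 2.80 in paused cells and 1.23 for the difference), 1 member was called in control (Bmi1, higher; 0 lower), 3 in paused cells (Suz12, Bcor and Bcorl1, all higher; 0 lower) and 0 for the difference. Over all genes that scaling left 293, 450 and 35. An adjusted p under 0.01 gave 18, 23 and 1 members, equal summed counts 24, 28 and 1 (shifts of -0.06 in control and -0.04 in paused cells, with 8 of 12 libraries taken as knockout), a median change of 0 gave 24, 28 and 1, and the abundance minimum 23, 29 and 1. Of all genes tested, an adjusted p under 0.01 called 30.9% in control and 32.3% in paused cells, and equal summed counts 39.8% and 41.1%. A median change of 0 called 41.5% and 42.5%, and the abundance minimum 51.6% and 53% of the genes that reached it. Equal summed counts lost Pcgf6, Cbx1 and Cbx7 and gained Rnf2, Mga and Kdm1a in control, and lost E2f6 and gained Ehmt2 in paused cells. The abundance minimum left out Cbx8 and gained Pcgf1 and Cbx1, both lower, in paused cells. No member's call was reversed under these alternatives. The depth of the libraries is not known. No paired analysis was possible because the tables hold no value per library, and leaving out each replicate was not run for the same reason.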

Other observations

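The enzymes that oppose the silencing factors were read beside them. The deubiquitinase PR-DUB removes the PRC1 mark, and of its 8 genes the authors' deposited tables called 2 higher and 2 lower in control and 1 higher and 3 lower in paused cells, or 50% in each against 41.4% and 42.6% of all genes. Bap1, its catalytic subunit, fell by 0.22 (SE 0.05) and 0.17 (SE 0.03), and the forkhead partner Foxk2 fell by 0.22 (SE 0.07) and 0.23 (SE 0.04) in the authors' deposited tables. Mbd6 rose by 0.33 (SE 0.09) and 0.35 (SE 0.05), and Mbd5 rose by 0.33 (SE 0.10) in control and was uncalled in paused cells (0.09, SE 0.07). Asxl2, a scaffold of the complex, was at 0.08 (SE 0.08) in control and fell by 0.22 (SE 0.06) in paused cells of the authors' deposited tables.

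Of the 2 H3K27 demethylase genes, Kdm6b rose by 0.27 (SE 0.07) and 0.50 (SE 0.06), and Kdm6a was called in neither of the authors' deposited tables (0.13, SE 0.07, and 0.04, SE 0.04). Among the 9 H3K9 demethylase genes the authors' deposited tables called 3 higher and 1 lower in control and 4 higher and 1 lower in paused cells, or 44.4% and 55.6% against the same shares of all genes. Kdm3a rose by 0.29 (SE 0.06) and 0.26 (SE 0.05), Kdm7a by 0.28 (SE 0.10) and 0.33 (SE 0.05), and Jmjd1c fell by 0.30 (SE 0.07) and 0.29 (SE 0.06) in the authors' deposited tables.

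Over all genes, the authors' deposited tables called 19.5% higher and 21.9% lower in control cells, and 20.5% higher and 22.0% lower in paused cells. The calls in the next 3 marker lists are to be read against these shares. Of the 8 fibroblast markers 7 were in the authors' deposited table of control cells, 4 called lower and 1 higher, and 6 in that of paused cells, 3 called lower and 1 higher. Those that fell in both were the collagen genes Col1a1 (-2.79, SE 0.40, and -3.53, SE 0.47), Col3a1 (-2.95, SE 0.37, and -2.22, SE 0.37) and Col1a2 (-0.87, SE 0.29, and -0.93, SE 0.34), at means of 381, 41.5 and 50.4 counts in control cells. Pdgfra, the marker called higher (1.41, SE 0.15, and 1.70, SE 0.12), is also in the primitive endoderm list. Among the 7 trophoblast markers the authors' deposited tables called Gata3 higher (1.54, SE 0.13, and 2.04, SE 0.15) and Cdx2 lower in both (-0.84, SE 0.22, and -0.92, SE 0.35), and Eomes lower in control (-0.94, SE 0.18) but not in paused cells (-0.06, SE 0.18). Krt8 and Krt18 were below 0 in both and uncalled, and Elf5 and Tfap2c were uncalled. The test of the difference between conditions called 1 of these 7, Eomes (0.89, SE 0.25, adjusted p 0.0326), or 14.3% against 1.44% of all genes. Of the 10 embryonic stem cell markers Klf4 (0.56, SE 0.06, and 0.26, SE 0.06) and Nanog (0.32, SE 0.06, and 0.18, SE 0.07) were called higher in both of the authors' deposited tables. Utf1 was lower in both (-0.23, SE 0.06, and -0.22, SE 0.07), Pou5f1 (-0.18, SE 0.06) and Lin28a (-0.18, SE 0.06) were lower in control alone, and the other 5 were uncalled. For the difference between conditions 1 of these 10 was called, Klf4 (-0.30, SE 0.08, adjusted p 0.0264), or 10%. All genes of these 3 lists that were called are named here, after their values were seen, except Dcn, which was called lower in control at a mean of 4.17 counts.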
